A study of Mus musculus with 12 samples.

Results

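The report covers 32 genes that mark or serve the endothelium, the cell layer that lines blood and lymph vessels, as they were measured in macrophage fractions sorted from the endometrium of mice. The genes were chosen by symbol from knowledge of the vessel wall, but with earlier results of these data known, so the choice was not blind to them. All 32 were found once each among the 22294 genes of the deposited table. Of these, 30 reached the level needed for testing, an FPKM (fragments scaled to transcript length and to the mapped fragments of the library) of at least 1 in at least 3 libraries, which 11604 genes in all did. Flt4 and Notch4 did not reach it. Every tested gene reached FPKM 1 in all 3 Sham libraries and also in at least 3 of the 9 other libraries, so none entered the test through Sham alone.

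Each of 4 groups held 3 libraries. The primed MSC group came from mice with a model of intrauterine adhesion (IUA) that were given mesenchymal stromal cells (MSC) primed with inflammatory cytokines, and the control MSC group from IUA mice given MSC without that priming. The MSC came from human umbilical cord, per the series title. The IUA group had the model alone and carries the name Matrigel in the labels, which do not say whether Matrigel belonged to the model or was a carrier. Sham mice had a sham operation and no other treatment. In all 4 groups the endometrium was minced and digested with trypsin and type I collagenase, red cells were lysed, and cells that bound magnetic beads against F4/80, a macrophage surface protein, were kept. Strain, age, cell dose, time of sampling and the number of mice behind a library are not given in the sources used here. The p-values therefore measure the spread between these libraries, which may be technical.

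Endothelial cells hold together through junction proteins such as VE-cadherin and claudins, and carry receptors for vascular endothelial growth factors (VEGF), for angiopoietins and for Notch ligands that direct the growth and resting of vessels. ETS and SOX transcription factors switch on much of this programme. The endometrium is richly supplied with vessels, whose cells can enter a suspension made by enzymes together with leukocytes, and F4/80 itself is a protein of macrophages.

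The libraries held an estimated 15200000 to 23600000 mapped fragments, read from the spacing of low FPKM values of short genes, of which 73.4% to 85.0% lay within 0.15 of a whole fragment number, a window that takes in 30% of the possible values. Macrophage identity was checked on 16 markers, which summed to 37725 to 40207 FPKM with primed MSC, 37916 to 41017 with control MSC, 36347 to 39826 in IUA and 13317 to 16109 in Sham. Adgre1, the gene of F4/80, averaged 1175 ± 199.8 FPKM with primed MSC, 939.9 ± 101 with control MSC, 434 ± 38.1 in IUA and 223 ± 29.0 in Sham (SD, n = 3 each). Csf1r, through which macrophages sense their growth factor CSF-1, averaged 364 ± 9.32 FPKM with primed MSC, 279 ± 13.99 with control MSC, 202 ± 75.0 in IUA and 148 ± 16.7 in Sham. Cd68, a lysosomal protein of macrophages, averaged 969 ± 65.1 FPKM with primed MSC, 1143 ± 61.4 with control MSC, 1341 ± 267 in IUA and 556 ± 100.1 in Sham, and Ptprc, the leukocyte antigen CD45, 178 ± 6.63 FPKM with primed MSC, 178 ± 22.9 with control MSC, 192 ± 28.0 in IUA and 84.6 ± 9.78 in Sham. All 4 were thus read in every group, with their lowest means in Sham. Across the 11604 tested genes the median log2 change against Sham was -0.33 with primed MSC, -0.30 with control MSC and -0.35 in IUA, a shift of the whole scale that the values below should be read against. IUA replicate 3 stood apart by a rank correlation of expression with transcript GC content of -0.21 over the tested genes, against -0.12 to -0.05 in the 11 other libraries.

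Transcripts of the endothelial genes were present in every library and were lower in all 3 groups with the IUA model than in Sham. Their FPKM summed to 316.4, 253.6 and 316.0 with primed MSC, 450.7, 303.1 and 306.1 with control MSC, 413.9, 427.7 and 274.4 in IUA, and 1276, 1046 and 707 in Sham. The highest sum of an IUA-model library thus lay below the lowest Sham sum. As a share of all FPKM in a library they made up 0.0471% to 0.0594% with primed MSC, 0.0548% to 0.0825% with control MSC, 0.0487% to 0.0777% in IUA and 0.14% to 0.242% in Sham. FPKM is a relative measure, so these values do not give amounts of endothelial RNA. The sums of the 16 macrophage markers ran the other way, at 13317 to 16109 FPKM in Sham and 36347 to 41017 in the IUA-model libraries. In bulk samples such as these, fewer endothelial cells, less of their RNA per cell and more RNA from other cells cannot be told apart. The part of each was not tested.

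**Figure D1:**
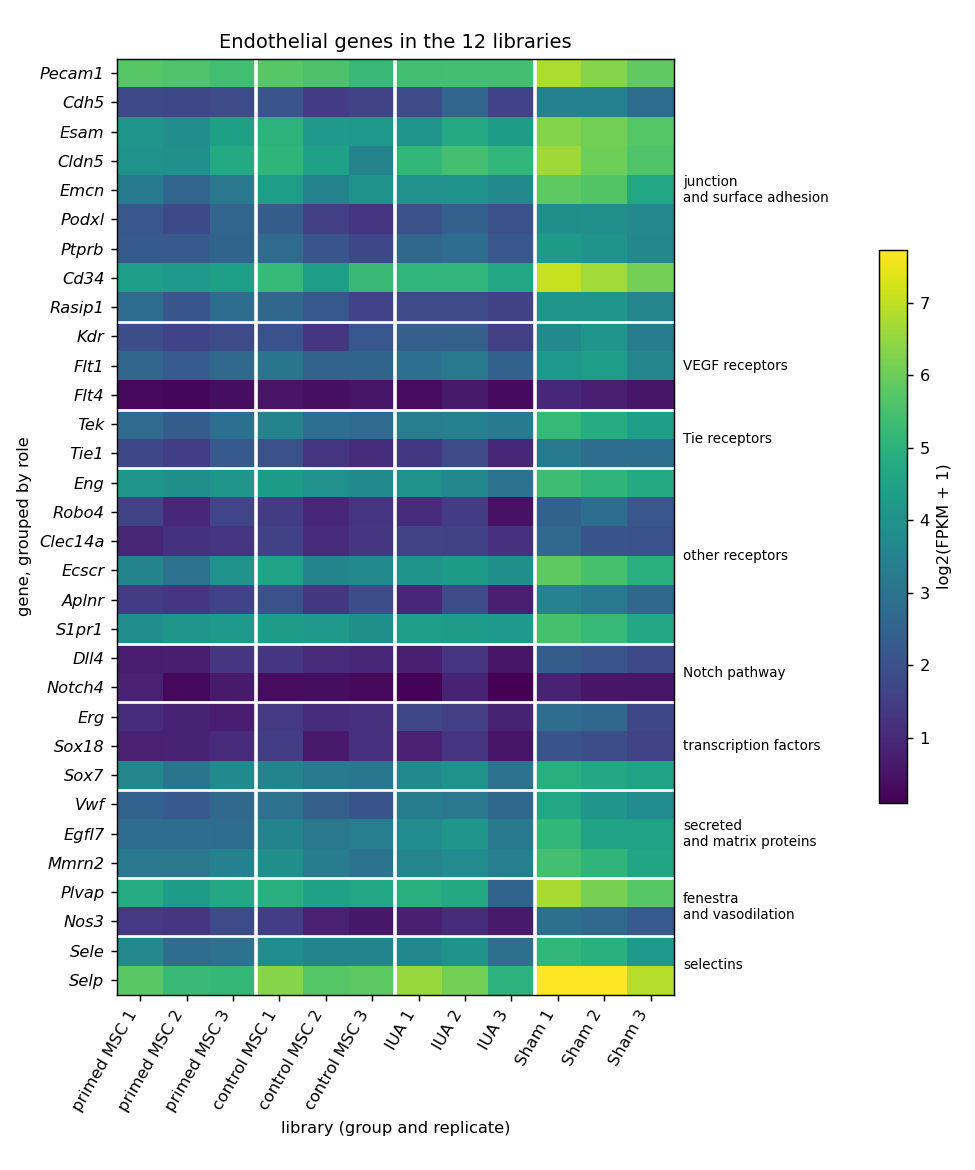
Heat map of log2(FPKM + 1) for the 32 endothelial genes (vertical axis, grouped by role) in the 12 libraries (horizontal axis, by group and replicate). The Sham libraries on the right hold the highest values of nearly every gene, Selp, Cd34 and Pecam1 are the brightest, and Flt4 and Notch4 stay near 0 throughout.

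In Sham the genes spanned a wide range of levels. Selp stood highest at 179 ± 54.4 FPKM (SD, n = 3), followed by Cd34 at 102 ± 33.5, Pecam1 at 82.5 ± 26.6, Plvap at 76.5 ± 27.2 and Cldn5 at 70.9 ± 25.5. Sox18 at 2.75 ± 0.541, Flt4 at 0.690 ± 0.220 and Notch4 at 0.587 ± 0.185 FPKM closed the order. FPKM is scaled to transcript length, so levels of different genes can be set side by side. Neighbours in this order mostly overlapped between the Sham libraries: of 31 neighbouring pairs, 1 did not, Sox18 above Flt4.

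Between the primed MSC and Sham groups, all 30 tested genes fell (limma on log2(FPKM + 1), Benjamini-Hochberg adjusted p under 0.05), where 45.0% of all tested genes did so. None rose, against 14.5% of all tested genes. With control MSC against Sham, 30 of 30 fell and none rose, against backgrounds of 42.7% and 14.1%. In IUA against Sham, 29 fell and none rose, against backgrounds of 45.0% and 11.1%, and Cldn5 did not pass, at a log2 change of -0.86 ± 0.36 (SE) and an adjusted p of 0.0603. The median log2 change of the 30 genes was -1.61 with primed MSC, -1.49 with control MSC and -1.44 in IUA. The 3 comparisons share the Sham libraries and are not independent of each other.

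Library by library the picture was the same. The primed MSC libraries lay entirely below Sham for 30 of the 30 tested genes (background 50.6% below and 17.5% above), as did control MSC (49.6% below and 17.0% above) and IUA (47.7% below and 11.9% above). All 9 IUA-model libraries lay below all 3 Sham libraries for the same 30 genes, against 35.8% of all tested genes. Of the untested genes, Flt4 overlapped with Sham in IUA, and Notch4 with primed MSC and in IUA. The moderated F test over the 4 groups called 30 of 30, where it called 67.0% of all tested genes. With no filter on low values all 32 genes were tested, and 31 fell with primed MSC, 30 with control MSC and 30 in IUA, where 33.3%, 32% and 31.9% of 18057 genes did.

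Scaling mattered to the size of these changes. With median-ratio scaling, which moves the median of all genes to near 0, 29 of 30 fell with primed MSC, 27 with control MSC and 26 in IUA, with medians of -1.23, -1.12 and -1.07. The same scaling turned the split over all tested genes to 25.1% lower and 27.9% higher with primed MSC, 24.2% and 26.2% with control MSC, and 22.1% and 22.9% in IUA. Under the 20 alternatives, 1788 log2 changes of the 32 genes against Sham were computed, and 0 of them were above 0, with Flt4 and Notch4 tested in 1 alternative, that with no filter.

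**Figure D2:**
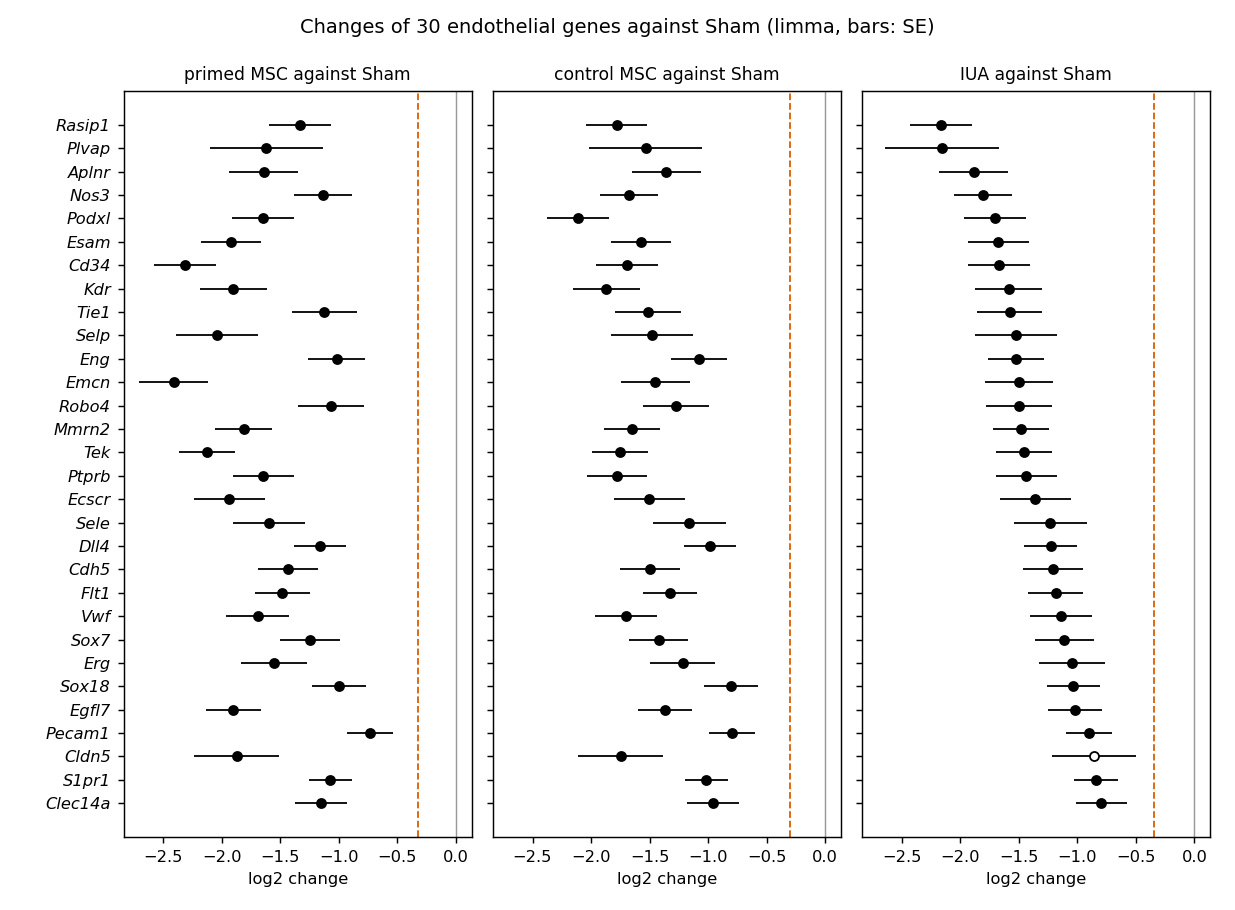
Log2 change of the 30 tested endothelial genes (vertical axis) against Sham in the primed MSC, control MSC and IUA groups, with bars of 1 SE, filled points for an adjusted p under 0.05 and a dashed line at the median of all 11604 tested genes. All points lie left of the dashed lines at -0.33, -0.30 and -0.35, and Cldn5 in IUA is the open point.

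Junction and surface proteins made up the largest role, with 9 genes. Pecam1, an adhesion molecule of endothelial junctions that leukocytes and platelets also carry, had 53.2, 48.3 and 42.0 FPKM with primed MSC, 52.7, 47.3 and 37.7 with control MSC, 42.0, 42.3 and 42.3 in IUA, and 111, 79.4 and 57.6 in Sham. Its Sham libraries differed among themselves by more than the lowest of them differed from the other groups, and its log2 changes were among the smallest of all, -0.73 with primed MSC, -0.80 with control MSC and -0.90 in IUA (SE 0.20, adjusted p 0.00698, 0.0046 and 0.0024). Without Sham replicate 1 its log2 changes were -0.50 with primed MSC, -0.56 with control MSC and -0.67 in IUA. Under median-ratio scaling Pecam1 no longer passed in any of the 3 comparisons, with log2 changes of -0.31 with primed MSC, -0.42 with control MSC and -0.50 in IUA. Under GC correction it did not pass with primed MSC (-0.37, adjusted p 0.128) or control MSC (-0.47, adjusted p 0.0611). Cdh5 encodes VE-cadherin, the adherens junction protein that defines the endothelium, and averaged 2.48 ± 0.135 FPKM with primed MSC, 2.39 ± 0.798 with control MSC, 3.24 ± 1.51 in IUA and 8.61 ± 2.25 in Sham (SD, n = 3 each). It fell in all 3 groups, with log2 changes of -1.44 with primed MSC, -1.50 with control MSC and -1.21 in IUA.

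Esam, an immunoglobulin-type adhesion molecule of endothelial tight junctions and platelets, had 16.2, 13.4 and 20.5 FPKM with primed MSC, 31.6, 17.5 and 17.1 with control MSC, 15.9, 26.1 and 18.5 in IUA, and 79.2, 68.3 and 51.2 in Sham. The highest value outside Sham, in control MSC replicate 1, was below every Sham library, and its log2 changes were -1.92 with primed MSC, -1.58 with control MSC and -1.67 in IUA (SE 0.26, adjusted p 8.31e-05, 3.49e-04 and 3.33e-04). Cldn5, the claudin of endothelial tight junctions, had 15.2, 14.1 and 26.3 FPKM with primed MSC, 33.3, 21.1 and 10.5 with control MSC, 34.6, 42.3 and 34.8 in IUA, and 98.7, 65.5 and 48.6 in Sham. It kept its highest level outside Sham in IUA, where the 3 libraries lay below but close to the lowest Sham library, while primed MSC and control MSC lay further down. Its log2 changes against Sham were -1.87 with primed MSC, -1.75 with control MSC and -0.86 in IUA (SE 0.36, adjusted p 9.13e-04, 0.00157 and 0.0603). Without control MSC replicate 3 the change with control MSC was -1.33.

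Emcn, endomucin, a sialomucin on the surface of venous and capillary endothelium, had 8.31, 5.03 and 7.82 FPKM with primed MSC, 19.3, 10.5 and 14.7 with control MSC, 14.4, 15.4 and 12.1 in IUA, and 56.5, 49.8 and 24.6 in Sham. The 3 primed MSC libraries were the lowest of all 12, and the log2 changes were -2.41 with primed MSC, -1.45 with control MSC and -1.50 in IUA (SE 0.29, adjusted p 4.54e-05, 0.00134 and 0.00123). Cd34, a sialomucin of vessel endothelium that haematopoietic progenitors and some stromal cells also carry, had 19.1, 17.4 and 20.2 FPKM with primed MSC, 36.1, 19.5 and 36.8 with control MSC, 33.5, 33.9 and 23.99 in IUA, and 136, 101 and 68.6 in Sham. Every primed MSC library was again below every IUA library, and control MSC replicate 2 was level with them. Its log2 changes were -2.32 with primed MSC, -1.69 with control MSC and -1.67 in IUA (SE 0.26, adjusted p 3.15e-05, 2.65e-04 and 3.85e-04). Podxl, podocalyxin, a sialomucin that helps open the vessel lumen, had 3.52, 2.50 and 5.01 FPKM with primed MSC, 4.07, 1.94 and 1.42 with control MSC, 2.95, 4.39 and 2.99 in IUA, and 13.9, 14.3 and 11.8 in Sham. Its lowest values were in control MSC replicates 2 and 3, and its log2 changes were -1.65 with primed MSC, -2.11 with control MSC and -1.70 in IUA (SE 0.27, adjusted p 2.85e-04, 7.61e-05 and 3.68e-04), the largest fall with control MSC among the 30 genes.

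Ptprb encodes the phosphatase VE-PTP, which acts on VE-cadherin and on the angiopoietin receptor, and had 3.79, 3.65 and 4.89 FPKM with primed MSC, 5.84, 3.32 and 2.35 with control MSC, 5.43, 6.04 and 3.48 in IUA, and 18.0, 15.7 and 11.7 in Sham. No library outside Sham exceeded the lowest Sham library, and its log2 changes were -1.65 with primed MSC, -1.78 with control MSC and -1.44 in IUA (SE 0.26, adjusted p 2.38e-04, 1.79e-04 and 7.70e-04). Rasip1, a Ras-interacting protein needed for vessel lumen formation in mice, had 6.06, 3.44 and 6.09 FPKM with primed MSC, 5.18, 3.55 and 2.11 with control MSC, 2.66, 2.62 and 1.98 in IUA, and 16.6, 16.1 and 10.8 in Sham. IUA held the lowest group mean, and its log2 changes were -1.33 with primed MSC, -1.78 with control MSC and -2.16 in IUA (SE 0.26, adjusted p 0.00103, 1.95e-04 and 1.05e-04). Rasip1 lies at chr7:45627488-45639093 of mm10 (GENCODE annotation) and, at 63.6% GC, had the highest transcript GC content of the 32 genes, whose median was 52.1%, against 49.4% for the tested genes.

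Among the VEGF receptors, Kdr, the main signalling receptor for VEGF-A, had 2.78, 2.11 and 2.56 FPKM with primed MSC, 3.07, 1.47 and 3.47 with control MSC, 4.33, 4.27 and 1.89 in IUA, and 12.1, 16 and 8.87 in Sham. IUA replicate 3 lay well below its 2 companions, and control MSC replicate 2 was lowest. Its log2 changes were -1.90 with primed MSC, -1.87 with control MSC and -1.59 in IUA (SE 0.29, adjusted p 1.82e-04, 2.41e-04 and 7.83e-04). Flt1, a receptor and decoy for VEGF-A that monocytes also carry, averaged 4.89 ± 0.829 FPKM with primed MSC, 5.63 ± 1.43 with control MSC, 6.34 ± 1.81 in IUA and 15.7 ± 4.11 in Sham (SD, n = 3 each) and fell in all 3 groups, with log2 changes of -1.48 with primed MSC, -1.33 with control MSC and -1.19 in IUA. Flt4, the VEGF-C receptor best known from lymphatic vessels, was below FPKM 1 everywhere, at 0.22, 0.18 and 0.30 FPKM with primed MSC, 0.42, 0.33 and 0.43 with control MSC, 0.28, 0.56 and 0.24 in IUA, and 0.91, 0.69 and 0.47 in Sham. Its IUA replicate 2 reached into the Sham range, and it rested on an estimated 23 to 134 fragments per library, so its level is known only roughly.

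Tek, the angiopoietin receptor of the endothelium, had 5.84, 4.06 and 6.41 FPKM with primed MSC, 10.4, 6.34 and 5.73 with control MSC, 9.19, 10.02 and 8.33 in IUA, and 36.0, 27.1 and 19.6 in Sham. Its mean was lowest with primed MSC, next lowest with control MSC and next in IUA, and its log2 changes were -2.13 with primed MSC, -1.75 with control MSC and -1.45 in IUA (SE 0.24, adjusted p 2.95e-05, 1.24e-04 and 4.73e-04). Tie1, its orphan partner receptor, averaged 2.65 ± 1.01 FPKM with primed MSC, 1.82 ± 0.973 with control MSC, 1.68 ± 0.799 in IUA and 6.83 ± 1.26 in Sham (SD, n = 3 each). It fell with log2 changes of -1.13 with primed MSC, -1.51 with control MSC and -1.58 in IUA, so that primed MSC held its highest mean outside Sham where it held the lowest for Tek.

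Of 6 other receptors, Eng, endoglin, a co-receptor of the TGF-beta family that activated macrophages can also carry, had 16.6, 13.8 and 16.5 FPKM with primed MSC, 18.0, 14.6 and 12.5 with control MSC, 15.1, 11.7 and 6.81 in IUA, and 40.2, 32.9 and 26.2 in Sham. IUA replicate 3 was the lowest library, and Eng was among the least lowered genes with primed MSC, with log2 changes of -1.02 with primed MSC, -1.08 with control MSC and -1.52 in IUA (SE 0.24, adjusted p 0.00305, 0.00238 and 3.82e-04). S1pr1, the sphingosine 1-phosphate receptor that stabilises junctions and is also found on lymphocytes, had 13.4, 16.4 and 17.7 FPKM with primed MSC, 18.5, 17.2 and 13.9 with control MSC, 19.8, 18.4 and 17.8 in IUA, and 44.8, 35.7 and 25.0 in Sham. The 9 IUA-model libraries lay close together below Sham, and the log2 changes were -1.07 with primed MSC, -1.01 with control MSC and -0.84 in IUA (SE 0.19, adjusted p 4.61e-04, 7.45e-04 and 0.00263). Its call in IUA was lost under median-ratio scaling, at an adjusted p of 0.0521. Ecscr, a surface regulator of endothelial chemotaxis and apoptosis, had 10.3, 6.85 and 15.0 FPKM with primed MSC, 21.4, 10.7 and 12.4 with control MSC, 15.5, 18.3 and 13.8 in IUA, and 56.3, 44.9 and 29.3 in Sham, with its lowest values in primed MSC replicate 2. Its log2 changes were -1.94 with primed MSC, -1.50 with control MSC and -1.36 in IUA (SE 0.30, adjusted p 2.30e-04, 0.00131 and 0.00264).

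Aplnr, the apelin receptor of venous and angiogenic endothelium, had 1.72, 1.45 and 2.10 FPKM with primed MSC, 3.01, 1.51 and 2.71 with control MSC, 0.97, 2.67 and 0.72 in IUA, and 10.1, 8.02 and 5.25 in Sham. IUA replicates 1 and 3 were the lowest libraries, and the log2 changes were -1.64 with primed MSC, -1.36 with control MSC and -1.89 in IUA (SE 0.29, adjusted p 5.58e-04, 0.00208 and 3.64e-04). Clec14a, an endothelial lectin that binds the matrix protein Mmrn2, had 0.87, 1.31 and 1.39 FPKM with primed MSC, 2.03, 1.06 and 1.47 with control MSC, 2.14, 2.04 and 1.27 in IUA, and 5.59, 3.27 and 3.02 in Sham. Its Sham replicates 2 and 3 were near those of the other groups, and its log2 change in IUA was the smallest of the 30. The log2 changes were -1.15 with primed MSC, -0.96 with control MSC and -0.79 in IUA (SE 0.22, adjusted p 8.55e-04, 0.00297 and 0.00912). Under median-ratio scaling and under GC correction its call in IUA was lost, at adjusted p of 0.0707 and 0.0516. Robo4, a guidance receptor that steadies the endothelial barrier, averaged 1.76 ± 0.725 FPKM with primed MSC, 1.35 ± 0.390 with control MSC, 1.08 ± 0.690 in IUA and 4.76 ± 1.43 in Sham (SD, n = 3 each) and fell in all 3 groups.

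The Notch genes were low. Dll4, the Notch ligand of arterial and tip cells, averaged 0.927 ± 0.480 FPKM with primed MSC, 1.15 ± 0.279 with control MSC, 0.840 ± 0.454 in IUA and 3.28 ± 0.800 in Sham (SD, n = 3 each) and fell with log2 changes of -1.16 with primed MSC, -0.98 with control MSC and -1.23 in IUA. Notch4, the receptor most tied to endothelium, had 0.73, 0.21 and 0.58 FPKM with primed MSC, 0.27, 0.29 and 0.21 with control MSC, 0.13, 0.82 and 0.07 in IUA, and 0.80, 0.48 and 0.48 in Sham, which an estimated 8 to 125 fragments per library support. The highest library of all was IUA replicate 2, the primed MSC and IUA libraries overlapped with Sham while those with control MSC lay below it, and no change can be read from it at this depth.

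The endothelial transcription factors fell as well. Sox7, a SOX factor shared with other tissues, had 11.1, 7.19 and 12.1 FPKM with primed MSC, 10.7, 8.04 and 7.53 with control MSC, 12.5, 15.2 and 6.92 in IUA, and 28.3, 25.3 and 21.6 in Sham. IUA replicate 3 was the lowest library, and the log2 changes were -1.25 with primed MSC, -1.42 with control MSC and -1.11 in IUA (SE 0.25, adjusted p 0.00125, 6.13e-04 and 0.00306). Sox18, its relative with a role in lymphatic and blood vessel growth, had 0.74, 0.79 and 1.07 FPKM with primed MSC, 1.81, 0.55 and 1.22 with control MSC, 0.73, 1.36 and 0.47 in IUA, and 3.27, 2.78 and 2.19 in Sham and rested on an estimated 13 to 125 fragments. All Sham libraries lay above the others, by little in control MSC replicate 1, and the log2 changes were -0.999 with primed MSC, -0.80 with control MSC and -1.03 in IUA (SE 0.23, adjusted p 0.00269, 0.0102 and 0.00263). Its call in IUA was lost under GC correction, at an adjusted p of 0.0625, and that with control MSC was lost under GC correction, under median-ratio scaling and without control MSC replicate 2, at adjusted p of 0.0568, 0.0528 and 0.0506. Erg, an ETS factor that maintains endothelial identity, averaged 0.830 ± 0.236 FPKM with primed MSC, 1.30 ± 0.231 with control MSC, 1.67 ± 0.783 in IUA and 4.61 ± 1.96 in Sham (SD, n = 3 each). It fell with log2 changes of -1.55 with primed MSC, -1.22 with control MSC and -1.05 in IUA, and the IUA call was lost under GC correction, at an adjusted p of 0.0610.

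Vwf, von Willebrand factor, which endothelium and megakaryocytes secrete for clotting, had 4.66, 3.69 and 5.64 FPKM with primed MSC, 6.73, 4.26 and 3.26 with control MSC, 8.95, 7.82 and 5.34 in IUA, and 24.2, 16.2 and 12.8 in Sham. The control MSC and primed MSC libraries lay mostly below those of IUA, and the log2 changes were -1.69 with primed MSC, -1.70 with control MSC and -1.14 in IUA (SE 0.27, adjusted p 2.48e-04, 2.82e-04 and 0.00357). Egfl7, a secreted protein that shapes vessel sprouts, had 6.13, 6.07 and 5.91 FPKM with primed MSC, 10.7, 7.89 and 9.23 with control MSC, 12.6, 16.6 and 8.09 in IUA, and 34.4, 21.7 and 21.6 in Sham. Its 3 primed MSC libraries lay within a narrow band and were the lowest of all 12. The log2 changes were -1.90 with primed MSC, -1.36 with control MSC and -1.02 in IUA (SE 0.23, adjusted p 4.64e-05, 4.51e-04 and 0.00298). Mmrn2, multimerin, a matrix protein of the endothelium, had 7.86, 7.67 and 9.96 FPKM with primed MSC, 13.9, 8.87 and 7.03 with control MSC, 10.95, 12.8 and 9.24 in IUA, and 42.4, 33.2 and 23.7 in Sham, with no IUA-model library near Sham, and log2 changes of -1.81 with primed MSC, -1.65 with control MSC and -1.48 in IUA (SE 0.24, adjusted p 7.86e-05, 1.81e-04 and 4.40e-04).

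Plvap, the protein of the diaphragms that span endothelial fenestrae and caveolae, had 26.5, 18.7 and 25.3 FPKM with primed MSC, 29.2, 21.1 and 24.5 with control MSC, 29.0, 25.4 and 4.88 in IUA, and 106, 71.3 and 52.4 in Sham. IUA replicate 3 lay far below the other IUA libraries, and the log2 changes were -1.62 with primed MSC, -1.53 with control MSC and -2.16 in IUA (SE 0.49, adjusted p 0.0124, 0.0174 and 0.00283). Without IUA replicate 3 the change in IUA was -1.40 and still passed. The Plvap calls with primed MSC and control MSC were lost without Sham replicate 1, at adjusted p of 0.0518 and 0.0679, and that with control MSC also without control MSC replicate 2, at 0.0555, and under median-ratio scaling, at 0.0594. Nos3, the endothelial nitric oxide synthase that relaxes vessels, averaged 1.89 ± 0.594 FPKM with primed MSC, 1.03 ± 0.688 with control MSC, 0.807 ± 0.304 in IUA and 5.36 ± 1.32 in Sham (SD, n = 3 each). At 15.0% of the Sham mean, it was the gene lowered most in IUA on the linear scale, against 35.2% with primed MSC and 19.2% with control MSC.

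The selectins capture leukocytes on inflamed endothelium. Sele, which cytokines induce, had 11.9, 6.13 and 6.81 FPKM with primed MSC, 12.7, 10.4 and 10.4 with control MSC, 11.7, 15.0 and 6.52 in IUA, and 34.7, 29.5 and 17.2 in Sham. Sham replicate 3 was not far above the highest IUA-model library, and the log2 changes were -1.60 with primed MSC, -1.16 with control MSC and -1.23 in IUA (SE 0.31, adjusted p 9.54e-04, 0.00721 and 0.00539). Selp, which is stored in granules of endothelium and platelets, had 54.1, 37.3 and 35.0 FPKM with primed MSC, 79.8, 51.9 and 55.5 with control MSC, 93.4, 69.9 and 31.99 in IUA, and 210.4, 211 and 117 in Sham. IUA spread widely, with replicate 1 the closest to Sham, and the log2 changes were -2.04 with primed MSC, -1.48 with control MSC and -1.53 in IUA (SE 0.35, adjusted p 4.36e-04, 0.00358 and 0.00323). Without IUA replicate 3 the change in IUA was -1.09. The genes lie side by side on chromosome 1, with 57586 bases between them, while the 32 genes as a whole sit on 16 chromosomes.

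On the linear scale the group mean of a gene stood at 16.2% to 86.4% of its Sham mean with primed MSC (median 28.5%), at 18.6% to 57.0% with control MSC (median 32.9%) and at 15.0% to 58.0% in IUA (median 33.6%). The upper ends belong to Notch4 and Flt4, the least certain genes, and the lowest values to Emcn with primed MSC, Podxl with control MSC and Nos3 in IUA.

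The Sham libraries themselves differed in step across the genes. All 32 were higher in Sham replicate 1 than in replicate 3, by 1.18 to 2.55 times (median 1.73). Replicate 3 was the lowest Sham library for 30 genes, where it was the lowest for 37.3% of tested genes. In IUA, replicate 3 was the lowest library for 28 genes (40.2% of tested genes), and in control MSC replicate 1 was the highest for 28 (45.2% of tested genes). Libraries of 1 group thus differed in level, with most genes high or low together in a library, and the 32 genes are not independent readings of a group. Leaving out any of the 12 libraries kept 29 to 30 genes lower with primed MSC, 28 to 30 with control MSC and 29 to 30 in IUA.

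The differences among the 3 IUA-model groups were far smaller. Between primed MSC and IUA, Egfl7 and Emcn fell and Rasip1 rose, 2 of 30 lower and 1 of 30 higher, where 6.97% and 12.2% of all tested genes did so, and 7 of 30 had an unadjusted p under 0.05, against 35.0% of all tested genes. The median log2 change of the 30 genes was -0.24, against -0.03 for all tested genes. Egfl7 (chr2:26580014-26593120 of mm10) averaged 6.04 ± 0.114 FPKM with primed MSC and 12.5 ± 4.27 in IUA (SD, n = 3 each), a log2 change of -0.88 ± 0.23 (limma, adjusted p 0.0215). Emcn (chr3:137341067-137432185) averaged 7.05 ± 1.77 with primed MSC and 13.95 ± 1.66 in IUA, a log2 change of -0.91 ± 0.29 (adjusted p 0.0472). Rasip1 averaged 5.20 ± 1.52 with primed MSC and 2.42 ± 0.382 in IUA, a log2 change of 0.83 ± 0.26 (adjusted p 0.0447). In each of the 3 genes the primed MSC and IUA libraries did not overlap.

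These 3 calls were not stable. The Egfl7 call was lost without IUA replicate 2 or without any of the primed MSC replicates, at adjusted p of 0.0579 to 0.0627. The Emcn call was lost under 11 of 20 alternatives, with log2 changes of -1.03 to -0.72, and the Rasip1 call under 9 of 20, down to 0.39 under GC correction. Leaving out each library in turn gave 0 to 4 lower and 0 to 2 higher genes.

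In all, 6 genes lay entirely lower with primed MSC than in IUA (Egfl7, Emcn, Tek, Cd34, Cldn5 and S1pr1) and 2 entirely higher (Rasip1 and Nos3), against backgrounds of 17.4% and 20.1%. Those not called had log2 changes of -1.01 for Cldn5, -0.68 for Tek, -0.65 for Cd34, -0.23 for S1pr1 and 0.67 for Nos3, with adjusted p of 0.0678, 0.0658, 0.104, 0.398 and 0.0769 in that order (limma).

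Between control MSC and IUA none of the 30 genes passed (limma), where 0.129% of all tested genes fell and 0.724% rose. At an unadjusted p under 0.05 there was 1 gene, against 18.8% of all tested genes, and the median log2 change was -0.08, against 0.02 for all tested genes. That gene was Cldn5, at -0.89 ± 0.36 (SE, adjusted p 0.218), the only one whose 3 control MSC libraries lay entirely below IUA, where 7.33% of tested genes did and 14.8% lay above. Between primed and control MSC none passed either (limma), where 0.0345% of all tested genes fell and 0.0776% rose, and 4 of 30 had an unadjusted p under 0.05, against 12.9% of all tested genes. Their median was -0.14, against -0.03 for all tested genes. Emcn stood out with -0.96 ± 0.29 (SE, adjusted p 0.224), and Emcn, Egfl7 and Erg had primed MSC libraries that lay entirely below control MSC, where 12.9% of tested genes lay below and 12.3% above. The SE per gene was 0.19 to 0.49, and p-values were adjusted over all tested genes, few of which passed in either comparison. A gene that did not pass may still differ.

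**Figure D3:**
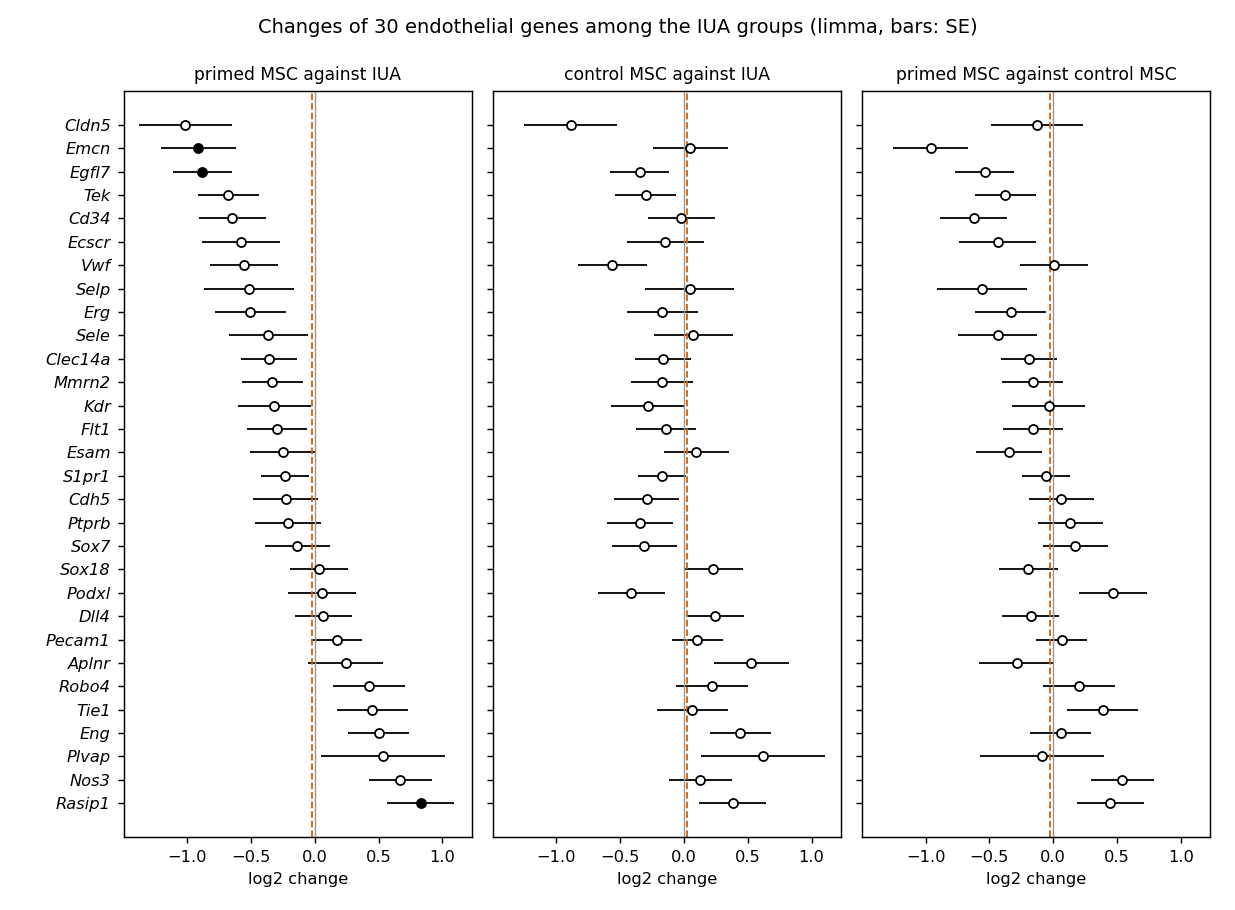
Log2 change of the 30 tested endothelial genes (vertical axis) in the 3 comparisons among the IUA-model groups, with bars of 1 SE, filled points for an adjusted p under 0.05 and a dashed line at the median of all tested genes. Points scatter around 0, and the filled ones are Egfl7, Emcn and Rasip1 for primed MSC against IUA.

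The upstream sequence was read where the reference table held it, for 18 of the 32 genes in 22 windows, each covering 250 to 51 bases before a RefSeq transcript start on GRCm38.p6. It was searched for GGAAG on either strand, the core that ETS factors such as Erg bind, and for ACAAT on either strand, a core of SOX sites. A GGAAG match and an ACAAT match, on either strand, cannot overlap each other. The ETS letters were in 15 of 22 windows (68.2%), against 55.0% of all 32851 windows of that length, and the SOX letters in 4 (18.2%), against 23.7%. Windows of 1 gene can overlap, and a match is a description of letters and not of binding. The windows of 4 genes that the results turn on are shown, with matches in capitals: Rasip1 at chr7:45627287-45627486 (plus strand) and Emcn at chr3:137340828-137341027 (plus strand), called in opposite directions between primed MSC and IUA, Tek at chr4:94739039-94739238 (plus strand), among the most lowered with primed MSC, and Cldn5 at chr16:18776597-18776796 (plus strand), the gene not called in IUA.
Rasip1: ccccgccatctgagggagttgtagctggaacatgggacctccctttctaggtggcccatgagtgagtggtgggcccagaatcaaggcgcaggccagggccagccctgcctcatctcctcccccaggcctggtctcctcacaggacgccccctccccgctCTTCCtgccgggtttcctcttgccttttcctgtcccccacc
Emcn: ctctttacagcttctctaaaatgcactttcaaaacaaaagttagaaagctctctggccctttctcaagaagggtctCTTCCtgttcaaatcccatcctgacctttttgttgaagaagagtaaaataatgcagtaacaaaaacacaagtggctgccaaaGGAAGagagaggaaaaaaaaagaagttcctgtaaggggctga
Tek: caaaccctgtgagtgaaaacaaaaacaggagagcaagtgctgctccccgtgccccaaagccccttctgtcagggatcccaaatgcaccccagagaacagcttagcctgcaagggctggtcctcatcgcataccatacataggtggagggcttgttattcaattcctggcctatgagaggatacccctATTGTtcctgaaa
Cldn5: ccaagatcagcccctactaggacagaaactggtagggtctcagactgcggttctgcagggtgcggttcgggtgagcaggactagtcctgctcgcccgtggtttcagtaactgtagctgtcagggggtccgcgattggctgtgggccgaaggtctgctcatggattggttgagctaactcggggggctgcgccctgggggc
Rasip1 held 1 ETS match, Emcn 2, Tek 1 SOX match, and Cldn5 neither.

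Most endothelial genes outside the 32 fell against Sham as well. Beside the counts that follow, 45.0% of all tested genes fell and 14.5% rose with primed MSC. The shares were 42.7% and 14.1% with control MSC, and 45.0% and 11.1% in IUA. Of 24 such genes 21 were tested, and 16 fell and none rose with primed MSC, 14 fell and none rose with control MSC, and 16 fell and 1 rose in IUA, with medians of -1.56, -1.41 and -1.05. With median-ratio scaling the counts were 15 lower and 3 higher, 14 and 2, and 11 and 1, and with GC correction 16 and 3, 14 and 1, and 12 and 2. Jam2, a junctional adhesion molecule, averaged 8.64 ± 0.361 FPKM with primed MSC, 12.9 ± 5.58 with control MSC, 17.5 ± 4.30 in IUA and 49.9 ± 3.97 in Sham (SD, n = 3 each) and fell in all 3. Aqp1, the water channel of endothelium and red cells, fell with log2 changes of -2.09 with primed MSC, -2.30 with control MSC and -1.81 in IUA. Bmx, a kinase of arterial endothelium, and Gata2, a factor that endothelium shares with blood progenitors and mast cells, also fell in all 3, Gata2 with log2 changes of -1.83 with primed MSC, -2.005 with control MSC and -2.26 in IUA. In Sham replicates 1, 2 and 3 Gata2 had 11.9, 16.1 and 17.9 FPKM, the reverse of the order of the endothelial and mast cell sums. The cells it came from were not tested.

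Between primed MSC and IUA, 5 of these 21 genes fell and 2 rose, where 6.97% and 12.2% of all tested genes did. Those that fell were Jam2, Tm4sf1, Cyyr1, Cav1 and Klf4, and those that rose were Fli1, an ETS factor that blood cells also use, and Klf2, a factor induced by flow in endothelium and present in leukocytes. Klf2 changed by 1.49 ± 0.31 between primed MSC and IUA (SE, adjusted p 0.008, limma). Klf4, the gene that rose in IUA against Sham, changed there by 0.52 ± 0.18 and no longer passed with the FPKM rescaled to 1 fixed library total (TPM). The Tm4sf1 call between primed MSC and IUA was lost with TPM and with GC correction. Apart from Jam2, the genes of this paragraph were named after their values were seen.

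Markers of arteries, veins and lymphatics were listed apart. Against Sham, 42.7% to 45.0% of all tested genes fell and 11.1% to 14.5% rose. Of 9 tested arterial genes, 9 fell with primed MSC, 8 with control MSC and 6 in IUA, among them Sox17, a SOX factor listed here as arterial, at -1.79 with primed MSC, -1.86 with control MSC and -2.03 in IUA, as well as Hey1, Bmx and Jag2. Sox17 had 33.05, 41.4 and 29.7 FPKM in Sham replicates 1, 2 and 3, where the arterial sum was 211, 146 and 126. The cells it came from were not tested. Of 6 genes listed here as venous, 4 fell in each group. These were Nr2f2, a factor that sets venous fate, Ephb4, Ackr1 and Il6st. In Sham replicates 1, 2 and 3 the venous sum was 513, 422 and 316 FPKM. Il6st had 117.62, 119.23 and 117.68 FPKM in these libraries, and Nr2f2 6.77, 5.77 and 3.74. The cells that Il6st and Nr2f2 came from were not tested. Ackr1, a chemokine-binding protein of venules, averaged 14.7 ± 5.71 FPKM with primed MSC, 19.7 ± 10.1 with control MSC, 36.4 ± 13.0 in IUA and 76.2 ± 31.7 in Sham (SD, n = 3 each) and also fell between primed MSC and IUA, by 1.26 (adjusted p 0.0434, limma). Of 5 tested lymphatic genes, 4 fell and 1 rose with primed MSC and with control MSC, and 2 fell and 1 rose in IUA. Prox1, the factor that sets lymphatic fate, fell in all 3 with log2 changes of -1.29 with primed MSC, -1.21 with control MSC and -1.17 in IUA. Lyve1, which lymphatic endothelium shares with some macrophages, also fell in all 3. In Sham replicates 1, 2 and 3 Prox1 had 2.18, 2.3 and 3.04 FPKM, and Lyve1 14.9, 5.26 and 4.63. The lymphatic sum there was 129.38, 65.65 and 72.21 FPKM, and the cells that Prox1 came from were not tested. Ccl21a, a lymphatic chemokine, fell with primed MSC and control MSC, and its copies elsewhere in the mouse genome make its counting uncertain. Pdpn, podoplanin, was the riser, at 1.99 with primed MSC, 2.44 with control MSC and 2.46 in IUA, a protein that stromal cells and macrophages also make. With median-ratio scaling the arterial genes that fell numbered 7, 7 and 4, the venous ones 4, 4 and 3, and the lymphatic ones 4, 2 and 1. With GC correction they numbered 8, 7 and 2 for arteries, 4, 4 and 3 for veins and 4, 3 and 1 for lymphatics. Among the named genes, the IUA calls of Hey1 and Jag2 were lost with GC correction, those of Ackr1 and Lyve1 with both, and that of Ccl21a with control MSC under median-ratio scaling.

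The ligands of the endothelial receptors, which many cell types make, were mixed. Vegfa, the ligand of Kdr and Flt1, had 88.6, 79.7 and 75.9 FPKM with primed MSC, 58.7, 68.0 and 66.0 with control MSC, 40.9, 43.1 and 30.3 in IUA, and 19.1, 22.4 and 17.5 in Sham. Its libraries stood lowest in Sham, and its log2 changes were 2.00 with primed MSC, 1.66 with control MSC and 0.91 in IUA (SE 0.14, adjusted p 1.57e-06, 5.91e-06 and 3.41e-04). It also rose with control MSC against IUA, by 0.75 ± 0.14 (SE, adjusted p 0.0403), and with primed MSC against IUA, by 1.09 ± 0.14 (adjusted p 8.60e-04, limma). The Vegfa call with control MSC against IUA was lost under median-ratio scaling and under GC correction. Tgfb1, a ligand whose receptor complex includes Eng, averaged 5.18 ± 0.450 FPKM with primed MSC, 2.60 ± 0.282 with control MSC, 1.46 ± 0.852 in IUA and 1.89 ± 0.436 in Sham (SD, n = 3 each) and rose with primed MSC against Sham by 1.10 and against IUA by 1.39. Cxcl12, a chemokine of stroma and endothelium, fell in all 3 groups against Sham with log2 changes of -1.85 with primed MSC, -1.68 with control MSC and -0.76 in IUA, and Jag2, a Notch ligand, with log2 changes of -0.72 with primed MSC, -0.82 with control MSC and -0.94 in IUA. Of 17 listed ligands 10 were tested, and 7 fell and 2 rose with primed MSC, 4 and 1 with control MSC, and 2 and 1 in IUA. Over all tested genes, 42.7% to 45.0% fell and 11.1% to 14.5% rose in these comparisons. With median-ratio scaling the numbers were 4 and 3, 3 and 2, and 1 and 2, and with GC correction 4 and 3, 3 and 3, and 0 and 2. The IUA call of Cxcl12 was lost under both, and that of Jag2 under GC correction. Gdf2, the ligand of endoglin made by the liver, was listed at 0 in all 12 libraries.

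Among 16 tested partners and targets of the receptors, 10 fell and none rose in each of the 3 groups against Sham. Of all tested genes, 42.7% to 45.0% fell and 11.1% to 14.5% rose. Hes1 and Hey1, targets of Notch, fell in all 3, Hes1 with log2 changes of -1.76 with primed MSC, -1.26 with control MSC and -0.79 in IUA. Spns2, the exporter that releases sphingosine 1-phosphate from endothelium, averaged 7.07 ± 2.40 FPKM with primed MSC, 7.73 ± 3.91 with control MSC, 8.02 ± 3.93 in IUA and 35.0 ± 8.78 in Sham (SD, n = 3 each). Sham replicates 1, 2 and 3 had 26.6, 34.2 and 44.1 FPKM of Spns2. That is the order of the uterine epithelium sum and the reverse of the endothelial sum, and the cells it came from were not tested. Id1, a target of BMP signalling, fell against Sham, with log2 changes of -2.41 with primed MSC, -1.59 with control MSC and -1.26 in IUA, and fell by 1.14 with primed MSC against IUA. Notch1, the receptor many cell types share, had smaller log2 changes of -0.33 with primed MSC, -0.51 with control MSC and -0.83 in IUA, and its direction with primed MSC turned under median-ratio scaling. Sphk1, the kinase that makes sphingosine 1-phosphate, fell with log2 changes of -0.54 with primed MSC, -0.47 with control MSC and -0.48 in IUA, and its direction in IUA turned under GC correction. With median-ratio scaling 7 fell and 2 rose with primed MSC, 8 and 2 with control MSC, and 6 and 2 in IUA, and with GC correction 8 and 2, 8 and 3, and 3 and 2. Both settings ended the IUA call of Hes1, the calls of Notch1 with primed MSC and control MSC, and all 3 calls of Sphk1, and GC correction also ended the IUA calls of Hey1 and Id1.

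Markers of uterine epithelium, smooth muscle and pericytes were also lower in the IUA-model groups, and those of endometrial stroma were lower with either MSC. Beside the counts that follow, 45.0% of all tested genes fell with primed MSC, 42.7% with control MSC and 45.0% in IUA. The 15 uterine epithelium genes summed to 1605 to 2499 FPKM with primed MSC, 1598 to 4016 with control MSC, 1644 to 5482 in IUA and 8233 to 14348 in Sham, and all 14 tested fell in each of the 3 groups, with medians of -1.96, -2.14 and -1.80, among them Pax8, Krt18, Prom1 and Cldn3. With median-ratio scaling 14, 14 and 13 did, and with GC correction 14, 14 and 12. The 14 smooth muscle and pericyte genes summed to 167 to 243 FPKM with primed MSC, 147 to 249.7 with control MSC, 299 to 383 in IUA and 434 to 1347 in Sham, and 11, 12 and 9 of 12 tested fell with primed MSC, control MSC and in IUA, among them Kcnj8, Cnn1, Abcc9 and Rgs5. With median-ratio scaling 10, 12 and 3 did, and with GC correction 10, 11 and 3, with the IUA call of Cnn1 lost under both, that of Rgs5 under the first and that of Kcnj8 under GC correction. The 12 endometrial stroma genes summed to 122 to 251 FPKM with primed MSC, 154 to 279.6 with control MSC, 299 to 942 in IUA and 488 to 949 in Sham, with 6, 6 and 3 of 10 lower, among them Hoxa11 and Hoxa10 in all 3 groups and Dcn and Ogn with primed MSC and control MSC. With median-ratio scaling 6, 4 and 2 were lower, as with GC correction, and the sum of IUA replicate 1, 942 FPKM, lay near that of the highest Sham library, 949. The macrophage genes ran the other way, with 15, 15 and 13 of 16 higher, none lower with primed MSC or control MSC, and 1 lower in IUA, Cx3cr1. That fall was lost under median-ratio scaling and under GC correction, where 16, 16 and 15 of the 16 rose. Ctss rose by 1.72 with primed MSC, 1.65 with control MSC and 2.00 in IUA, and Itgam and Lyz2 rose in all 3 as well. Each of these lists had no gene at 0 throughout a group. Their part in the endothelial result was not tested.

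Within Sham some lists ran together and others did not. The endothelial sum was highest in replicate 1 and lowest in replicate 3, at 1276, 1046 and 707 FPKM, and the smooth muscle and pericyte sum did the same, at 1347, 767 and 434, as did those of macrophage, mast cell, platelet, arterial and venous genes. The uterine epithelium sum ran the opposite way, at 8233, 12990 and 14348.

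Several endothelial genes are shared with blood cells, whose markers were listed for that reason. The 12 platelet and megakaryocyte genes, of interest for Selp, Vwf, Pecam1 and Esam, summed to 374 to 498 FPKM with primed MSC, 579.8 to 706 with control MSC, 309 to 470.2 in IUA and 209 to 415 in Sham. Within Sham the platelet sum was 415, 261 and 209 FPKM in replicates 1, 2 and 3, where Selp stood at 210.4, 211 and 117. Pf4, which makes up most of the sum, can come from macrophages too. Pf4 and Ppbp rose with primed MSC and control MSC, and Itgb3 fell with primed MSC and in IUA, the falls in Itgb3 being lost under median-ratio scaling and GC correction and the Ppbp call with primed MSC under TPM. The 14 lymphocyte genes, of interest for S1pr1, summed to 48.2 to 60.7 FPKM with primed MSC, 34.1 to 77.6 with control MSC, 53.3 to 96.2 in IUA and 41.5 to 68.1 in Sham, and of 6 tested 2 fell and 3 rose with primed MSC, 1 and 2 with control MSC, and none fell and 3 rose in IUA. Cd79b rose and Nkg7 fell with primed MSC and control MSC, and Cd2 fell with primed MSC. The 9 mast cell genes, of interest for Gata2, summed to 40.2 to 73.3 FPKM with primed MSC, 32.5 to 53.2 with control MSC, 32.9 to 102 in IUA and 145 to 208 in Sham, with 5, 7 and 4 of 8 lower, among them Kit, Hdc, Fcer1a and Mcpt4 in all 3 groups, the IUA call of Fcer1a being lost under median-ratio scaling and GC correction. Of 6 red blood cell genes 3 were tested and all 3 globins fell in each group, Hba-a1, Hba-a2 and Hbb-bs, with sums of 3.00 to 5.71 FPKM with primed MSC, 8.12 to 10.8 with control MSC, 6.56 to 13.1 in IUA and 17.8 to 83.2 in Sham, and near-identical globin copies make their split uncertain. The IUA call of Hba-a1 was lost under GC correction. The part of these cells in the endothelial result was not tested.

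**Figure D4:**
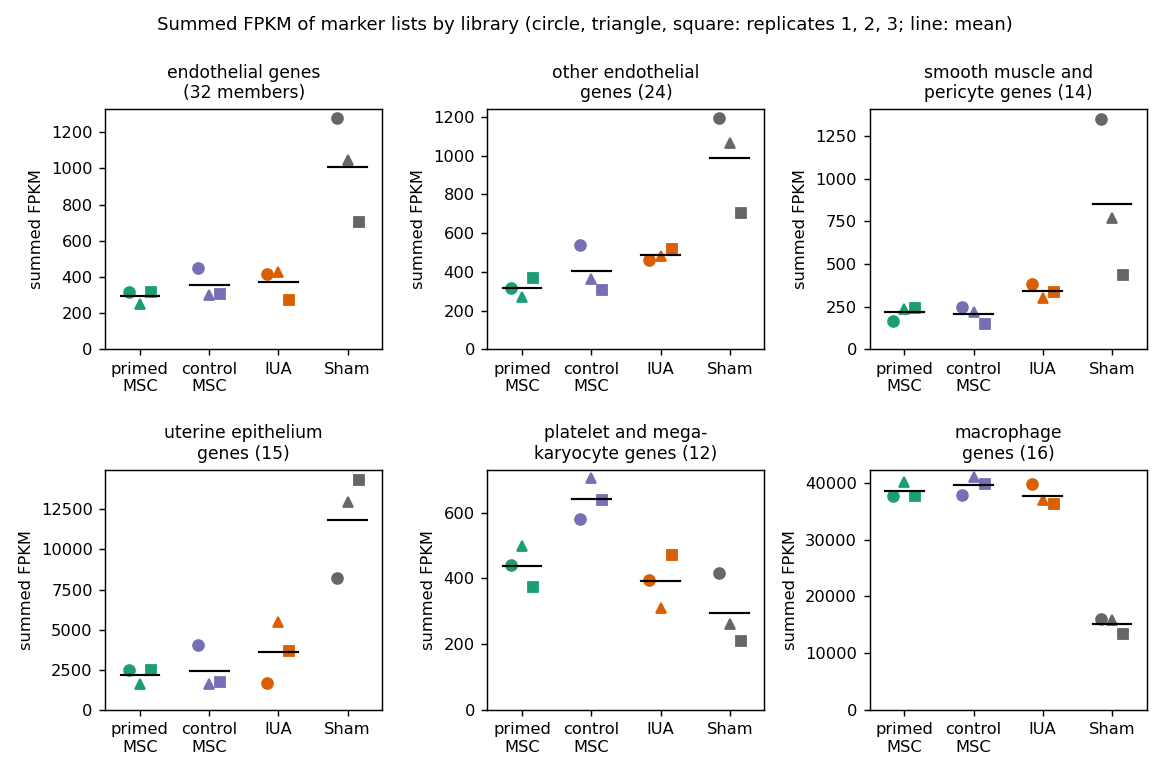
Summed FPKM (vertical axis, from 0) of the 32 endothelial genes and of 5 other marker lists in each library, by group, with circle, triangle and square for replicates 1, 2 and 3 and a line for the mean. Endothelial, smooth muscle and epithelial sums are highest in Sham, platelet and macrophage sums are not, and within Sham the endothelial and epithelial sums run in opposite order.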

How the data were processed

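Messenger RNA of 12 libraries was measured by sequencing after enrichment of polyadenylated RNA, per the labels' protocols. For each gene the authors deposited FPKM with 2 decimals, in 1 column per library. The submitters' processing notes list mm10 as the build, and DESeq2, RSEM, StringTie, HISAT2 and fastp as tools. Which of them made the FPKM, their versions, and the strand setting are not given in the sources used here. Reads of overlapping or antisense genes may therefore be mixed. Library totals of FPKM were 505460 to 563751. No 2 libraries held identical values. Depth was estimated by searching, over genes with 1 transcript of up to 900 bases, for the FPKM worth 1 fragment. Too few values were whole for a count test. Fragment numbers per gene used the longest GENCODE transcript and are approximate.

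Tests ran in limma 3.58.1 (R 4.3.3) on log2(FPKM + 1). All 12 libraries entered 1 fit with a mean per group, an empirical Bayes variance trend and two-sided tests. P-values were adjusted by Benjamini-Hochberg over the 11604 genes that reached FPKM 1 in 3 or more libraries. Genes with an adjusted p under 0.05 are said to rise or fall, and fold changes of low genes are understated on this scale. Permuting 3 libraries a group allows no exact two-sided p below 0.1, and none is given. Log2 changes carry the SE of limma, and FPKM means the SD of 3 libraries. The fit was tested on simulated data.

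The 32 genes, the other lists and the tests were chosen with earlier results of these data known. All 32 are named. Values per library are given for the 16 genes that reach FPKM 20 and for those with the 3 largest and 3 smallest log2 changes in each comparison with Sham, plus a few low genes. From each other list up to 4 tested genes with the smallest F test p are named. Some genes of these lists are not reported here. Alternatives were a pseudocount of 0.1, no filter, a filter at FPKM 5, rescaling to 1 fixed library total (TPM), median-ratio scaling, a fit to the compared groups only, a replicate block, correction for transcript GC content (lowess, span 0.3), and leaving out each library. Other lists were refitted under the scaling and GC alternatives.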

Additional observations from a re-analysis of the deposited data

How the results depend on the processing

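Of 92 gene calls, each recomputed under up to 20 alternatives, 1781 of 1822 recomputed values kept their direction and side of the threshold, 41 lost the call and 0 reversed. Under every alternative run, 28 of 30 calls held for primed MSC against Sham, 27 of 30 for control MSC against Sham, 24 of 29 for IUA against Sham and 0 of 3 for primed MSC against IUA. The counts against Sham were 29, 27 and 26 lower with primed MSC, control MSC and in IUA under median-ratio scaling, 29, 28 and 26 under GC correction, 24, 24 and 23 of 24 tested with the filter at FPKM 5, and 30 in each with TPM and with the compared groups only. Leaving out a library gave 29 to 30, 28 to 30 and 29 to 30, the 28 without control MSC replicate 2. For primed MSC against IUA the count of lower genes was 1 with no filter, 1 with TPM and 5 with the compared groups only, against 2, and the count of higher genes was 0 with no filter and 0 under GC correction, against 1. Leaving out a library gave 0 to 4 lower genes, 0 without IUA replicate 2 or any primed MSC replicate and 4 without control MSC replicate 1, and 0 to 2 higher genes. The cause was not tested.

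The replicate block gave 30, 30 and 29 lower genes against Sham, and 2 lower and 1 higher for primed MSC against IUA, the counts of the fit without it, and ended no call. Deviations of same-numbered libraries correlated at -0.29 to 0.29 over the tested genes, and in no comparison did every pair exceed 0.1, so the numbers were not taken to pair the libraries. Depth limits Notch4, Flt4, Sox18 and Dll4 most, with as few as 8, 23, 13 and 31 estimated fragments in a library. Intervals from counts were not given, since the fragment numbers are estimates.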
